A study of Mus musculus with 6 samples.

Results

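The expression of 9 axon injury response genes (*Atf3*, *Sprr1a*, *Sox11*, *Gadd45a*, *Ecel1*, *Flrt3*, *Crem*, *Anxa1* and *Cckbr*) was examined in bulk RNA-seq of mouse dorsal root ganglion (DRG) and neurofibroma. The genes were taken by symbol from the 24062 genes in the deposited count files, and all 9 were found. The study asked which genes respond when *Runx1* and *Runx3* are deleted together with *Nf1* in the Schwann cell (SC) lineage. There were 3 libraries from *Nf1fl/fl;DhhCre* mice and 3 from mice labelled *Rx1flfl;Rx3fl/fl;DhhCre*, called double knockout here, all on the C57BL/6-I129 background. According to the methods of the study the latter mice were *Nf1fl/fl* as well, so that both groups carried floxed *Nf1* and *DhhCre* and differed in the floxed *Runx1* and *Runx3* alleles. Cre under the *Dhh* promoter acts in SCs and their precursors, so that the floxed alleles are not targeted in neurons or immune cells. The labels name the tissue DRG for *Nf1fl/fl;DhhCre* and neurofibroma tumor for double knockout, whereas the methods name DRG/tumors for both, so that genotype and dissected tissue cannot be told apart. The age of these mice is not given in the sources used here, and the sequencing run differed for 1 double-knockout library.

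When the axon of a DRG neuron is cut, the neuron switches on a program of transcription that accompanies regrowth of the axon. *Atf3*, *Sox11* and *Crem* encode transcription factors of this program, *Gadd45a* a stress-induced regulator of DNA repair and the cell cycle, and *Sprr1a* a small proline-rich protein first known from the cornified envelope of skin that promotes axon outgrowth. *Flrt3* encodes a leucine-rich repeat membrane protein, *Ecel1* a membrane metallopeptidase homologue induced by nerve injury, *Cckbr* a receptor for cholecystokinin, and *Anxa1* a calcium-dependent phospholipid-binding protein with anti-inflammatory action. Several of these genes are not specific to neurons, and glia, fibroblasts and myeloid cells express some of them. In bulk RNA, fewer cells of a type and less RNA per cell cannot be told apart.

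In limma-voom, the test the study names, with all libraries and equal weights, only *Anxa1* of the 9 genes passed the thresholds of the study. It was 2.65-fold lower in the double-knockout libraries. *Sprr1a* and *Cckbr* were lower and *Sox11* was higher in the mean, without passing in that fit, whereas DESeq2 called *Sprr1a* and *Sox11*. In limma-voom *Sox11* also passed with sample quality weights and without both libraries rich in muscle genes. *Atf3*, the gene most used to mark injured sensory neurons, differed between the groups by less than the spread of the libraries. *Ecel1* was near the limit of detection in all 6 libraries.

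Library totals ran from 12439296 to 16682194 counts. Values are given as CPM, the counts divided by a library size scaled with the trimmed mean of M values, and 3 counts correspond to between 0.179 and 0.247 CPM. Among the targeted genes, *Runx3* was at 19.9, 15.1 and 29.9 CPM in *Nf1fl/fl;DhhCre* compared with 13.6, 10.3 and 12.2 CPM in double knockout. *Runx1* was at 131, 141 and 172 CPM against 84.0, 78.9 and 185 CPM, and replicate 3 labelled double knockout was not reduced. Bulk RNA also holds transcripts of cells that Cre does not target, so *Runx1* neither bears out nor contradicts the genotype of that replicate. The summed level of the sensory neuron genes described below was also highest there, at 15890 CPM. The part of neurons in its *Runx1* value was not tested. *Nf1*, floxed in both groups according to the methods, had a log2 fold change of -0.06 (SE 0.15). The double-knockout group is described by its label throughout. Skeletal muscle genes took a summed 19580 CPM in *Nf1fl/fl;DhhCre* replicate 2 and 50420 CPM in double-knockout replicate 2, against 97.1 to 586 CPM in the other libraries. Results are also given without these libraries where that changes them.

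**Figure D1:**
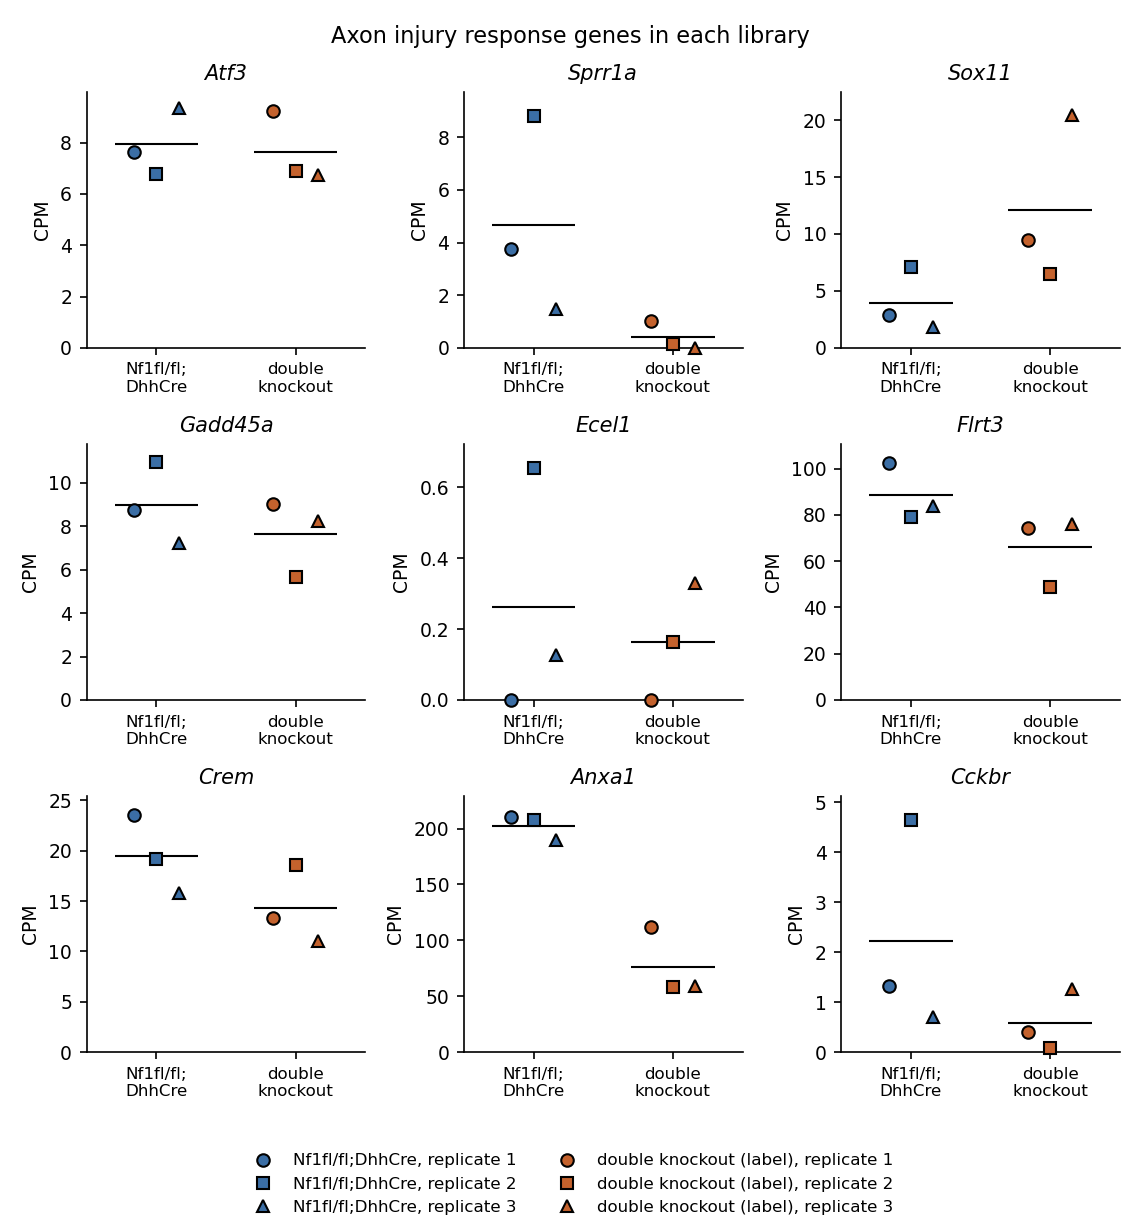
Each panel shows 1 gene in CPM on a linear axis from 0, with a point for each of the 3 libraries per genotype and a line at the mean. *Anxa1* separates the genotypes by a wide gap, *Sprr1a* and *Flrt3* separate them narrowly, and the groups overlap for *Atf3*, *Sox11*, *Gadd45a*, *Ecel1*, *Crem* and *Cckbr*.

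*Anxa1* (chr19:20373428-20390944, GRCm38) measured 211, 208 and 190 CPM in *Nf1fl/fl;DhhCre* compared with 112, 57.9 and 59.4 CPM in double knockout. Every library of the former lay above every library of the latter, and the highest double-knockout value, in replicate 1, was still far below the lowest *Nf1fl/fl;DhhCre* value. For *Anxa1*, limma-voom estimated a log2 fold change of -1.48 ± 0.24 (values after ± in fitted changes are SE), and the Benjamini-Hochberg adjusted p was 0.0127. With any 1 library removed the value lay between -1.75 and -1.32, and *Anxa1* passed after 5 of the 6 removals. Without *Nf1fl/fl;DhhCre* replicate 1 the value was -1.42 (adjusted p = 0.0569 from limma-voom), and without both muscle-rich libraries it was -1.29 (adjusted p = 0.0450 from limma-voom).

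The macrophage and fibroblast marker lists moved in the same direction as *Anxa1*. In counts of genes here and below, rose and fell mean an adjusted p below 0.05 and a change of more than 2-fold in limma-voom. Of 13 macrophage genes, 13 were tested and 11 fell, with a summed level of 1234 to 2790 CPM in *Nf1fl/fl;DhhCre* and 188 to 469 CPM in double knockout. Of 10 fibroblast genes, 9 were tested and 4 fell (*Dcn*, *Lum*, *Pdgfra* and *Col1a2*), and the summed level was 9542 to 10260 CPM against 3653 to 5995 CPM. Beside both lists, 5.36% of all genes tested fell by these thresholds. Without *Nf1fl/fl;DhhCre* replicate 1, the macrophage count was 1 and the fibroblast count 1. Without double-knockout replicate 2 they were 6 and 2. The part of these cell types in the *Anxa1* difference was not tested.

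Of the other annexins, none of the 7 tested here (*Anxa2*, *Anxa3*, *Anxa4*, *Anxa5*, *Anxa6*, *Anxa7* and *Anxa11*) passed both thresholds in limma-voom, and *Anxa4* and *Anxa6* had an unadjusted p below 0.05. *Anxa6* was at 98.5, 111 and 102 CPM in *Nf1fl/fl;DhhCre* compared with 145, 167 and 190 CPM in double knockout (0.68 ± 0.14 on the log2 scale; limma-voom adjusted p = 0.0192), higher in each double-knockout library but by less than 2-fold. *Fpr1*, which encodes a formyl peptide receptor that binds annexin A1, was at 0.694, 2.80 and 1.22 CPM and at 0.159, 0 and 0.132 CPM (-3.68 ± 1.06 on the log2 scale; limma-voom adjusted p = 0.0509). All 3 double-knockout libraries had fewer than 3 counts of *Fpr1*, which passed the filter on low counts through the *Nf1fl/fl;DhhCre* libraries, where it was higher. *Fpr2*, another formyl peptide receptor gene, was at 1.04, 3.34 and 0.641 CPM against 1.04, 0 and 1.52 CPM. Its groups overlapped (-1.65 ± 1.34 on the log2 scale; limma-voom adjusted p = 0.425).

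*Sprr1a* (chr3:92483952-92485895, GRCm38) had 54, 148 and 23 counts in the *Nf1fl/fl;DhhCre* libraries and 13, 2 and 0 counts in the double-knockout libraries. In CPM these were 3.75, 8.82 and 1.48 against 1.04, 0.165 and 0, where the 0 allows up to 0.198 CPM. The groups did not overlap, but replicate 3 of *Nf1fl/fl;DhhCre* lay close to replicate 1 of double knockout. The fitted log2 fold change was the largest among the tested members at -4.38 ± 1.67 on the log2 scale (limma-voom adjusted p = 0.108), and its SE was the largest as well. DESeq2 gave -3.57 and an adjusted p of 0.00639, the only setting in which *Sprr1a* passed. Leaving out 1 library moved the value between -5.47 and -2.98.

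*Sprr1a* is also a gene of stratified skin. Of 15 keratinocyte genes, 8 had no count in any library, *Krt5*, *Krt14* and *Lor* among them, and the summed level of the list was 7.14 to 9.53 CPM in *Nf1fl/fl;DhhCre* and 5.02 to 14.5 CPM in double knockout. Its close relatives *Sprr1b*, *Sprr2d* and *Sprr3* had no count in any library. *Sprr2h* had its only count in *Nf1fl/fl;DhhCre* replicate 3, at 0.0641 CPM. The *Sprr* genes are a family of similar sequences, and reads shared between copies could have been left out or split in counting.

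The bases before the RefSeq start sites of *Sprr1a* and *Anxa1*, the members with the largest fitted decrease and with the called decrease, are shown to place motifs of the injury factors. They are the 250 bases upstream on GRCm38.p6, 5′ to 3′ on the minus strand, at chr3:92485882-92486131 and chr19:20390672-20390921. Capitals mark AP-1 motifs (TGANTCA, the letters bound by JUN and FOS proteins).
Sprr1a: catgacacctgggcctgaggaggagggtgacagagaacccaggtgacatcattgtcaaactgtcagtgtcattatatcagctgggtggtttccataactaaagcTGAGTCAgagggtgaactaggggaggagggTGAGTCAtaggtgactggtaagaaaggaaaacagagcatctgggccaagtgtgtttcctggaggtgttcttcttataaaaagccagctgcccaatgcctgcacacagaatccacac
Anxa1: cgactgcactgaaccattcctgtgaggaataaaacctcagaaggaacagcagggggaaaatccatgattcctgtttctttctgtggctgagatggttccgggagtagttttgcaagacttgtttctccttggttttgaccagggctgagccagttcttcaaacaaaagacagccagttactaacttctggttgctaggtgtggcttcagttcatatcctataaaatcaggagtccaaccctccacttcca

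*Sprr1a* held 2 AP-1 motifs, both TGAGTCA, whose first bases lay 146 and 116 bases before the start. The search covered both strands of windows from 250 bases before to 50 bases after the start for AP-1, for the cyclic AMP response element (TGACGTCA) bound by ATF and CREM proteins and for the RUNX letters TGTGGT. No motif overlapped another in these windows. AP-1 letters occurred in 7.81% of the 32851 RefSeq promoter windows, those of the cyclic AMP response element in 1.79% and those of RUNX in 16.8%. Windows were found for 8 of the 9 members, the exception being *Crem*. The windows of *Atf3*, *Sox11*, *Gadd45a*, *Ecel1*, *Flrt3*, *Anxa1* and *Cckbr* held none of these letters, which says nothing of sites elsewhere. The result for RUNX depends on the letters. The shorter TGTGG, searched after the data were seen, occurred 2 times in the window of *Anxa1* and 1 time each in those of *Sprr1a*, *Gadd45a* and *Ecel1*, beside 55.9% of all windows.

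None of the transcription factor genes of the group, *Sox11*, *Atf3* and *Crem*, passed in limma-voom with all libraries and equal weights. *Sox11* (chr12:27334264-27342574, GRCm38) measured 2.84, 7.09 and 1.80 CPM in *Nf1fl/fl;DhhCre* compared with 9.48, 6.50 and 20.5 CPM in double knockout. The groups overlapped by a single pair of libraries, the muscle-rich replicate 2 of each genotype. For *Sox11*, limma-voom estimated 1.72 ± 0.63 on the log2 scale, and the adjusted p was 0.0988. Without both muscle-rich libraries it was 2.67 and passed (adjusted p = 0.0415 from limma-voom), and it also passed with sample quality weights (1.74, adjusted p = 0.0454) and in DESeq2 (1.62, adjusted p = 0.0314). It passed after none of the 6 single removals, which moved the estimate between 1.22 without double-knockout replicate 3 and 2.35 without *Nf1fl/fl;DhhCre* replicate 2. Among its nearest relatives, *Sox4* was at 6.80, 5.30 and 8.47 CPM against 4.62, 2.88 and 3.17 CPM, lower in each double-knockout library (-0.94 ± 0.33 on the log2 scale; limma-voom adjusted p = 0.0852). *Sox12* differed by -0.38 (SE 0.21). Neither passed the test.

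*Atf3* (chr1:191170296-191218039, GRCm38) measured 7.63, 6.79 and 9.37 CPM in *Nf1fl/fl;DhhCre* compared with 9.24, 6.91 and 6.73 CPM in double knockout. The libraries of both groups were interleaved. For *Atf3*, limma-voom estimated -0.06 ± 0.25 on the log2 scale, and the adjusted p was 0.890. The estimate lay between -0.17 and 0.10 with 1 library left out, with its sign changed without replicate 3 of either genotype. The counts behind these values were 84 to 146 per library.

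*Crem* (chr18:3266048-3337748, GRCm38) measured 23.6, 19.2 and 15.8 CPM against 13.3, 18.6 and 11.0 CPM. Only double-knockout replicate 2 lay within the range of the other group. For *Crem*, limma-voom estimated -0.47 ± 0.25 on the log2 scale, and the adjusted p was 0.226. *Creb1* and *Atf1*, which encode the activators of the same family, were lower in all 3 double-knockout libraries by less than 2-fold, at -0.47 ± 0.12 on the log2 scale (limma-voom adjusted p = 0.0397) and -0.58 ± 0.15 on the log2 scale (limma-voom adjusted p = 0.0353). The counts of *Crem* add its activating and repressing isoforms, and a transcript on the opposite strand, *Gm6225*, shares 472 exon bases with it.

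Among 19 basic leucine zipper genes that can pair with or compete with ATF3 and CREM, 17 were tested, 1 fell and none rose, beside 5.36% of all genes tested that fell. That gene was *Fosl2*, a FOS family subunit of AP-1, at 149, 169 and 148 CPM in *Nf1fl/fl;DhhCre* compared with 81.2, 47.8 and 46.9 CPM in double knockout (-1.46 ± 0.21 on the log2 scale; limma-voom adjusted p = 0.0106). Without *Nf1fl/fl;DhhCre* replicate 1 no gene of the list passed, and without *Nf1fl/fl;DhhCre* replicate 2 there were 3 that fell. By direction alone 15 of the 17 were lower and 2 higher, with a median log2 fold change of -0.46 beside 0.02 over all genes tested. All double-knockout libraries lay below the others in 8 genes and above in 1, beside 20.5% and 21.8% of all genes tested. *Jun*, the AP-1 subunit induced with *Atf3* after axon injury, was at 109, 92.9 and 92.1 CPM against 69.4, 65.1 and 69.9 CPM. It was lower in every double-knockout library but by less than 2-fold (-0.52 ± 0.13 on the log2 scale; limma-voom adjusted p = 0.0324).

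*Gadd45a* (chr6:67035096-67037457, GRCm38) measured 8.74, 11.0 and 7.25 CPM in *Nf1fl/fl;DhhCre* compared with 9.01, 5.67 and 8.25 CPM in double knockout. The groups overlapped, and the log2 difference was -0.23 ± 0.28 (limma-voom adjusted p = 0.586). It became 0.13 when both muscle-rich libraries were left out. Its relatives were scarcer: *Gadd45b* was at 1.25, 1.31 and 2.89 CPM against 0.399, 0.576 and 0.924 CPM, and *Gadd45g* at 0.694, 0.655 and 0.898 CPM against 2.87, 2.71 and 1.32 CPM. These pointed in opposite directions without overlap (log2 fold changes -1.40 and 1.47, SE 0.64 and 0.55), and neither passed the test (adjusted p = 0.164 and 0.101 from limma-voom). An antisense transcript, *E230016M11Rik*, shares 337 exon bases with *Gadd45a*, and without a stated strand setting their reads cannot be told apart.

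Genes of the ATF4 and p53 stress responses, which also induce *Atf3* and *Gadd45a*, were nearly balanced. Of 12 tested, 1 rose and none fell, beside 8.03% of all genes tested that rose, and their median log2 fold change was 0.04. The gene that rose was *Asns*, asparagine synthetase, at 10.5, 14.5 and 13.6 CPM against 35.4, 34.2 and 41.9 CPM (1.53 ± 0.19 on the log2 scale; limma-voom adjusted p = 0.00835). *Ddit3*, which encodes CHOP, differed by 0.17 (SE 0.26). Immediate-early genes, which handling of tissue can induce, had 2 of 12 fall and none rise, beside 5.36% of all genes tested that fell. These were *Egr1* (-1.20, SE 0.21) and *Btg2* (-1.46, SE 0.21), and the summed level of the list was 376 to 478 CPM in *Nf1fl/fl;DhhCre* and 205 to 283 CPM in double knockout. Without *Nf1fl/fl;DhhCre* replicate 1 the number that fell was 1, as *Egr1* did not pass. It was 3 without *Nf1fl/fl;DhhCre* replicate 2 or double-knockout replicate 1. The part of handling in the members' values was not tested.

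*Flrt3* (chr2:140650914-140671469, GRCm38) measured 103, 78.9 and 83.9 CPM in *Nf1fl/fl;DhhCre* compared with 74.4, 48.6 and 75.9 CPM in double knockout. The groups did not overlap, but the gap between them was small beside the spread within each. For *Flrt3*, limma-voom estimated -0.43 ± 0.21 on the log2 scale, and the adjusted p was 0.184. *Flrt2* was at 67.9 ± 22.1 CPM against 42.5 ± 9.90 CPM (SD, n = 3), and *Flrt1* at 11.0, 23.7 and 5.97 CPM against 16.9, 17.6 and 27.1 CPM. Neither passed the test, with log2 fold changes of -0.66 (SE 0.27) and 0.79 (SE 0.47). *Flrt3* lies within the span of *Macrod2* on the other strand, and the exons of these genes share no base.

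*Cckbr* (chr7:105425731-105470898, GRCm38) had 19, 78 and 11 counts in *Nf1fl/fl;DhhCre* and 5, 1 and 19 counts in double knockout. In CPM these were 1.32, 4.65 and 0.706 against 0.399, 0.0822 and 1.25. A single library, *Nf1fl/fl;DhhCre* replicate 2, held most of the counts. For *Cckbr*, limma-voom estimated -1.98 ± 1.17 on the log2 scale, and the adjusted p was 0.273. The estimate was -1.11 without that library and -0.33 without both muscle-rich libraries. The other cholecystokinin receptor gene, *Cckar*, had the opposite direction, at 3.19, 4.89 and 1.35 CPM against 9.64, 7.32 and 20.7 CPM. It passed without both muscle-rich libraries and after none of the 6 single removals. With all libraries its groups did not overlap (2.06 ± 0.61 on the log2 scale; limma-voom adjusted p = 0.0551). *Cck*, which encodes the ligand, was at no more than 0.159 CPM in any library.

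*Ecel1* (chr1:87147655-87156521, GRCm38) had 0, 11 and 2 counts in *Nf1fl/fl;DhhCre* and 0, 2 and 5 counts in double knockout. It did not pass the filter on low counts and was not tested with the other members. Only the 11 counts in *Nf1fl/fl;DhhCre* replicate 2 and the 5 in double-knockout replicate 3 exceeded 3 counts. When every gene with a count was kept, its log2 fold change was -0.13 (SE 1.30). A difference was not detectable at this depth. *Ece1* and *Ece2*, endothelin-converting enzymes of the same peptidase family, differed by -0.06 (SE 0.11) and 0.97 ± 0.35 on the log2 scale (limma-voom adjusted p = 0.0893).

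Over the whole group, 8 of the 9 members were tested. Of these 1 was a differentially expressed gene (DEG), that is, past an adjusted p of 0.05 and a change of more than 2-fold, and it was lower. Of all 15652 genes tested, 13.4% were DEGs in either direction and 5.36% were lower DEGs. A share of 1 in 8 members in either direction lies near that background. Of the tested members 7 had a negative log2 fold change and 1 a positive one, with a median of -0.45 beside 0.02 over all genes tested. In 3 members, *Sprr1a*, *Flrt3* and *Anxa1*, all double-knockout libraries lay below the others, beside 20.5% of all genes tested, and in none did they lie above, beside 21.8%. In limma-voom with all libraries and equal weights *Anxa1* was also the only member with an adjusted p below 0.05 at any fold, where 8.22% of all genes were lower. *Sprr1a* and *Cckbr* passed the filter on low counts mainly through the *Nf1fl/fl;DhhCre* libraries, where they were higher.

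**Figure D2:**
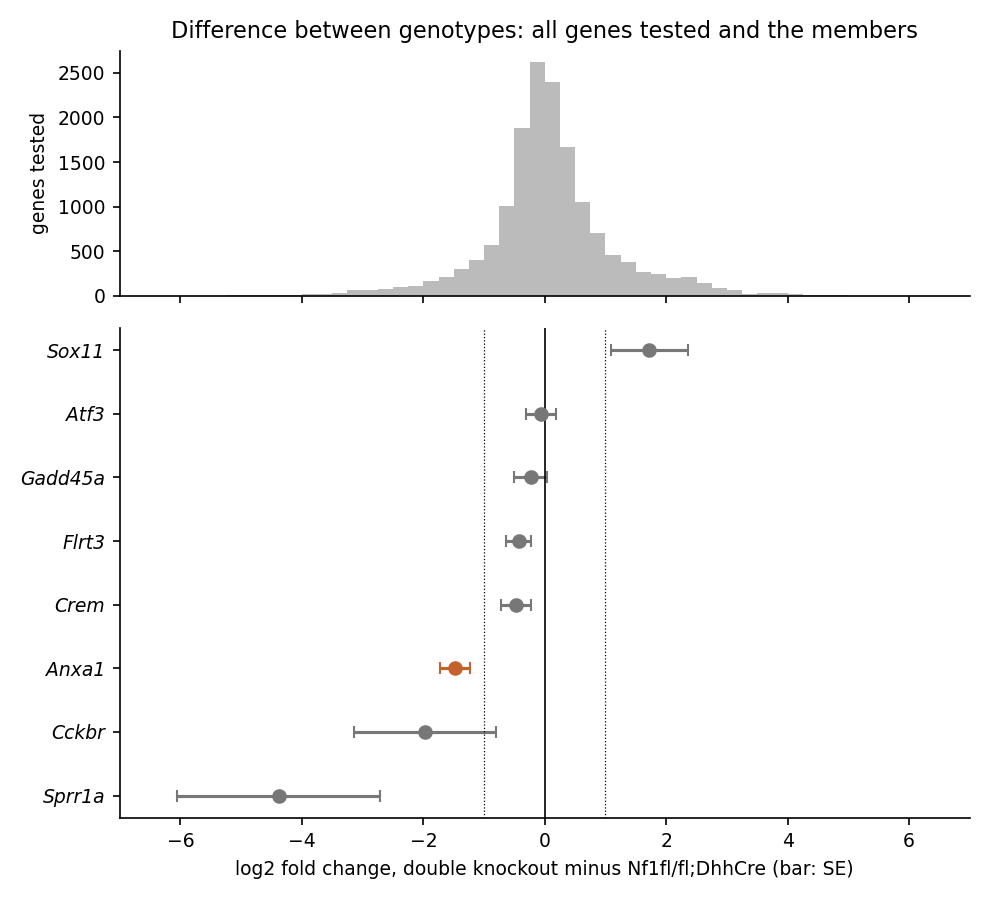
The upper panel counts all tested genes by log2 fold change, and the lower panel gives the 8 tested members with their SE. The dotted lines mark 2-fold and the orange point is the DEG. *Anxa1* alone passes both thresholds, *Sprr1a* has a larger change of -4.38 with an SE of 1.67, and *Sox11* is the only member to the right of 0.

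Levels per kilobase of exon, in CPM per kb, placed *Anxa1* highest in both genotypes, with a median of 71.3 in *Nf1fl/fl;DhhCre* and 20.4 in double knockout. *Flrt3* followed with a median of 17.2 and 15.3 CPM per kb, and neither overlapped the other within a genotype. In *Nf1fl/fl;DhhCre* the next medians were 4.95 for *Gadd45a*, 4.65 for *Sprr1a*, 3.54 for *Atf3* and 3.25 CPM per kb for *Crem*, and the ranges of neighbours in this order overlapped. The lowest were *Cckbr*, *Sox11* and *Ecel1* at medians of 0.461, 0.342 and 0.0367 CPM per kb. In double knockout *Gadd45a* (4.68), *Atf3* (3.21) and *Crem* (2.26 CPM per kb) kept their order, *Sox11* stood at 1.14 CPM per kb, and *Sprr1a* had a median of 0.204 CPM per kb. The median of *Sox11* thus stood below that of *Sprr1a* in *Nf1fl/fl;DhhCre* and above it in double knockout, where their ranges overlapped.

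Sensory neuron genes were higher in the group whose tissue is labelled tumor than in the group labelled DRG. All 20 sensory neuron genes were tested, and their summed level was 1544 to 3037 CPM in *Nf1fl/fl;DhhCre* and 7187 to 15890 CPM in double knockout. Of them 19 rose and none fell, beside 8.03% of all genes tested that rose. Without *Nf1fl/fl;DhhCre* replicate 1, where few genes passed at all, the count was 1, and without *Nf1fl/fl;DhhCre* replicate 3 it was 8. The members were therefore also expressed relative to these genes, as log2 CPM minus the mean log2 CPM of the list in the same library. This mean was 2.20 higher in double knockout, which subtracts the same amount from the difference of each member. It is not a level per neuron, since other cells also contribute reads to the members, and the part of neuron content in the members' CPM was not tested.

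On this scale *Atf3* was at -1.93, -3.16 and -1.47 in *Nf1fl/fl;DhhCre* and at -3.70, -4.36 and -5.27 in double knockout, a difference of -2.26. *Gadd45a* (-2.44), *Flrt3* (-2.64), *Crem* (-2.66), *Anxa1* (-3.68), *Cckbr* (-4.22) and *Sprr1a* (-6.45) were also lower in every double-knockout library on the neuron-relative log2 scale. The same held for 82.1% of all genes tested, whose median difference on this scale was -2.19, so that separation on it is not particular to these members. *Anxa1*, *Sprr1a* and *Flrt3* were also separated in plain CPM, while *Atf3*, *Gadd45a*, *Crem* and *Cckbr* were separated only after the subtraction. The value of *Sprr1a* depends on the prior count of 0.5 added to its count of 0.

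*Sox11* and *Ecel1* were the exceptions. *Sox11* was at -3.34, -3.10 and -3.84 against -3.67, -4.45 and -3.67, a neuron-relative log2 difference of -0.50 with overlapping groups. Its plain log2 CPM was 1.70 higher in double knockout, beside 2.20 for the sensory neuron genes. *Ecel1* differed by -2.32 with overlapping groups, from counts near 0.

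**Figure D3:**
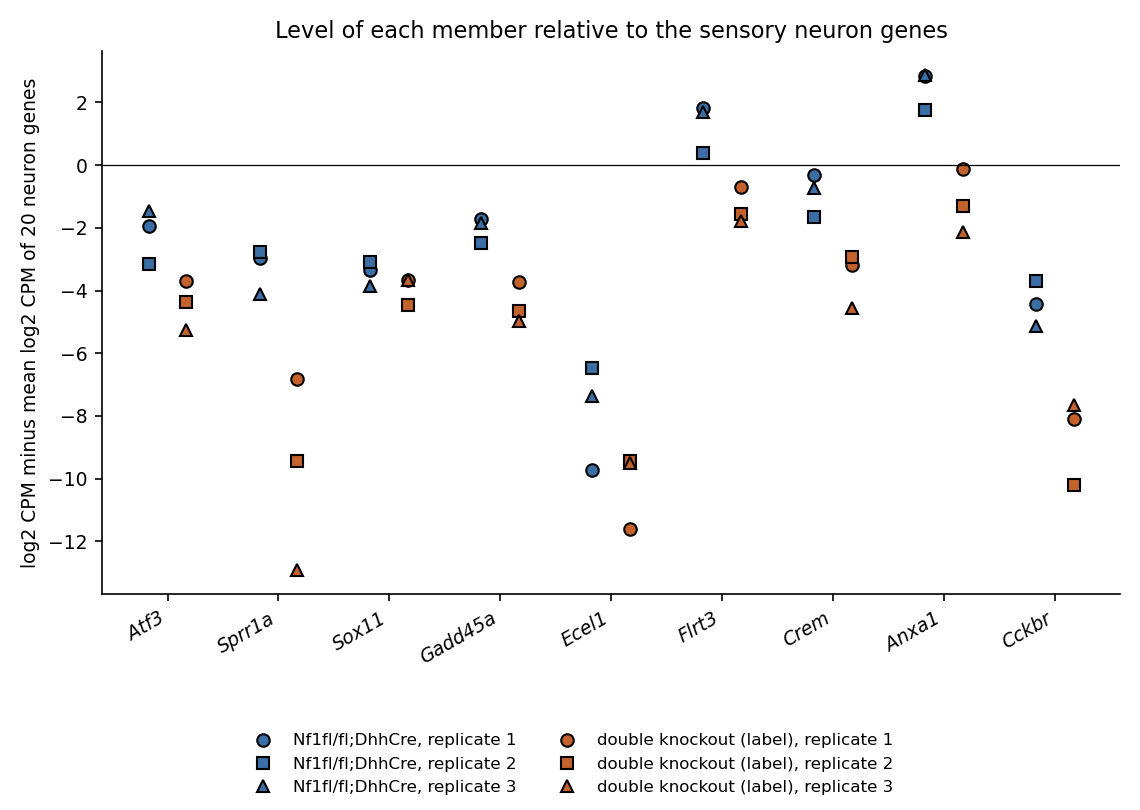
Each point is a library, plotted as the log2 CPM of the member minus the mean log2 CPM of 20 sensory neuron genes. The double-knockout points lie below all *Nf1fl/fl;DhhCre* points for 7 members, with mean differences of -2.26 for *Atf3* and -3.68 for *Anxa1*, and overlap them for *Sox11* and *Ecel1*. Of all genes tested, 82.1% separate in the same way on this scale.

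Other genes of the neuronal response to axon injury were read from the same fit. Of 24 such genes, 21 were tested, and past both thresholds 3 rose and none fell. By direction alone 12 were higher and 9 lower, and the median log2 fold change was 0.28. The background of higher DEGs was 8.03%. *Gap43*, a growth cone protein, was at 13.7, 18.9 and 18.7 CPM in *Nf1fl/fl;DhhCre* compared with 38.9, 44.7 and 78.2 CPM in double knockout (1.61 ± 0.31 on the log2 scale; limma-voom adjusted p = 0.0170). *Adcyap1*, the gene of the neuropeptide PACAP, was at 4.44, 8.82 and 2.44 CPM against 14.0, 12.2 and 25.5 CPM (1.84 ± 0.50 on the log2 scale; limma-voom adjusted p = 0.0433). *Lifr*, the receptor for leukemia inhibitory factor, was at 258, 354 and 242 CPM against 475, 504 and 764 CPM (1.02 ± 0.22 on the log2 scale; limma-voom adjusted p = 0.0240).

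In these 3 genes every double-knockout library lay above the others, beside 21.8% of all genes tested, and in 6 other tested genes of the list every double-knockout library lay below, beside 20.5%. After removal of each library in turn *Gap43* passed 5 times of 6, *Adcyap1* 1 time and *Lifr* 2 times. The number that rose was 0 without *Nf1fl/fl;DhhCre* replicate 1 and 1 without *Nf1fl/fl;DhhCre* replicate 3, double-knockout replicate 2 or double-knockout replicate 3.

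*Gal*, the neuropeptide galanin that injured sensory neurons make, was at 0.0694, 0.477 and 1.22 CPM against 1.12, 1.97 and 4.36 CPM. The groups overlapped and the log2 difference was 2.45 ± 1.01 (limma-voom adjusted p = 0.130). With any 1 library removed this difference lay between 1.56 and 3.3, and *Gal* never passed. *Npy*, *Vip* and *Il6*, also induced by nerve injury, did not pass the filter on low counts and were not tested in the main fit. *Npy* was at 0.208, 1.55 and 3.66 CPM in *Nf1fl/fl;DhhCre* compared with 0, 0 and 0.0660 CPM in double knockout. *Klf6* and *Chl1*, chosen after their values were seen, were lower in every double-knockout library by less than 2-fold, at -0.47 ± 0.11 on the log2 scale (limma-voom adjusted p = 0.0272) and -0.83 ± 0.21 on the log2 scale (limma-voom adjusted p = 0.0342).

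**Figure D4:**
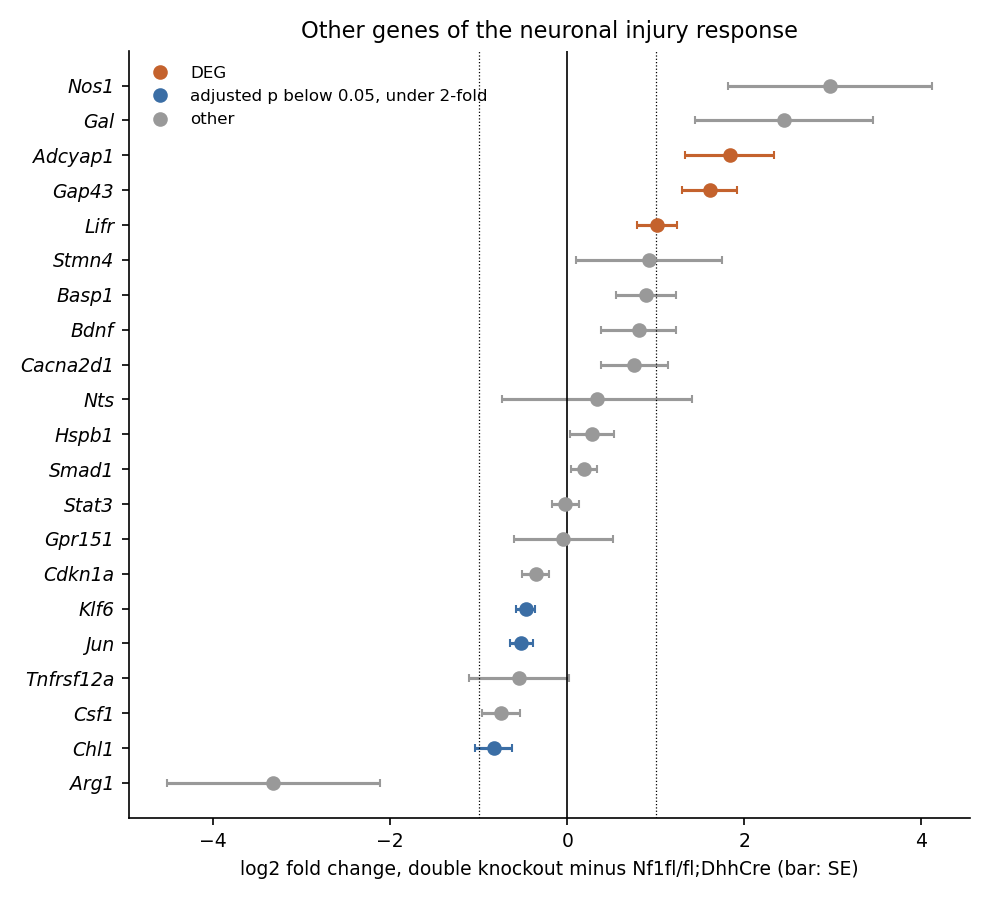
The log2 fold change of 21 tested genes of the neuronal injury response is shown with its SE, with orange for DEGs, blue for an adjusted p below 0.05 under 2-fold and grey for the rest. The DEGs *Adcyap1*, *Gap43* and *Lifr* lie to the right of the 2-fold line, *Gal* and *Nos1* lie farther right with wide SE and are not DEGs, and *Jun*, *Klf6* and *Chl1* lie between the line at 0 and the lower 2-fold line.

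Injured nerve also holds repair SCs, which have their own injury genes. Of 12 such genes, 10 were tested, 2 rose (*Ngfr*, 1.36 ± 0.33, and *Cdh2*, at most 33.4 CPM against at least 53.2 CPM) and 4 fell, beside 8.03% and 5.36% of all genes tested. *Gdnf*, a neurotrophic factor, had the largest decrease, from 7.70, 10.4 and 9.30 CPM to 2.95, 0.905 and 1.39 CPM (-2.53 ± 0.44 on the log2 scale; limma-voom adjusted p = 0.0137). *Gfap*, an intermediate filament of SCs without myelin, *Btc*, an epidermal growth factor family ligand, and *Runx2*, a RUNX factor, changed by -1.94 (SE 0.24), -1.54 (SE 0.40) and -1.46 (SE 0.17). *Gfap* and *Runx2* passed whichever library was removed, *Gdnf* after 5 of the 6 removals and *Btc* after 2. The number that rose was 0 without *Nf1fl/fl;DhhCre* replicate 1 or double-knockout replicate 3, and 1 without *Nf1fl/fl;DhhCre* replicate 3 or double-knockout replicate 2 or with library size only. The number that fell was 2 without *Nf1fl/fl;DhhCre* replicate 1. Of 10 general SC genes 1 rose (*S100b*, 1.52 ± 0.13) and 1 fell (*Postn*, -2.15 ± 0.33), with summed levels of 2268 to 3206 CPM against 1572 to 2259 CPM. *Postn* alone made up 935 to 1860 CPM and 248 to 487 CPM of these sums. Of 8 satellite glia genes 1 rose (*Fabp7*, 1.87 ± 0.29) and 1 fell (*Kcnj10*, -1.25 ± 0.22). Without *Nf1fl/fl;DhhCre* replicate 1 no satellite glia gene passed and no general SC gene fell. Counts of 1 in lists of this size lie near the shares of all genes tested.

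**Figure D5:**
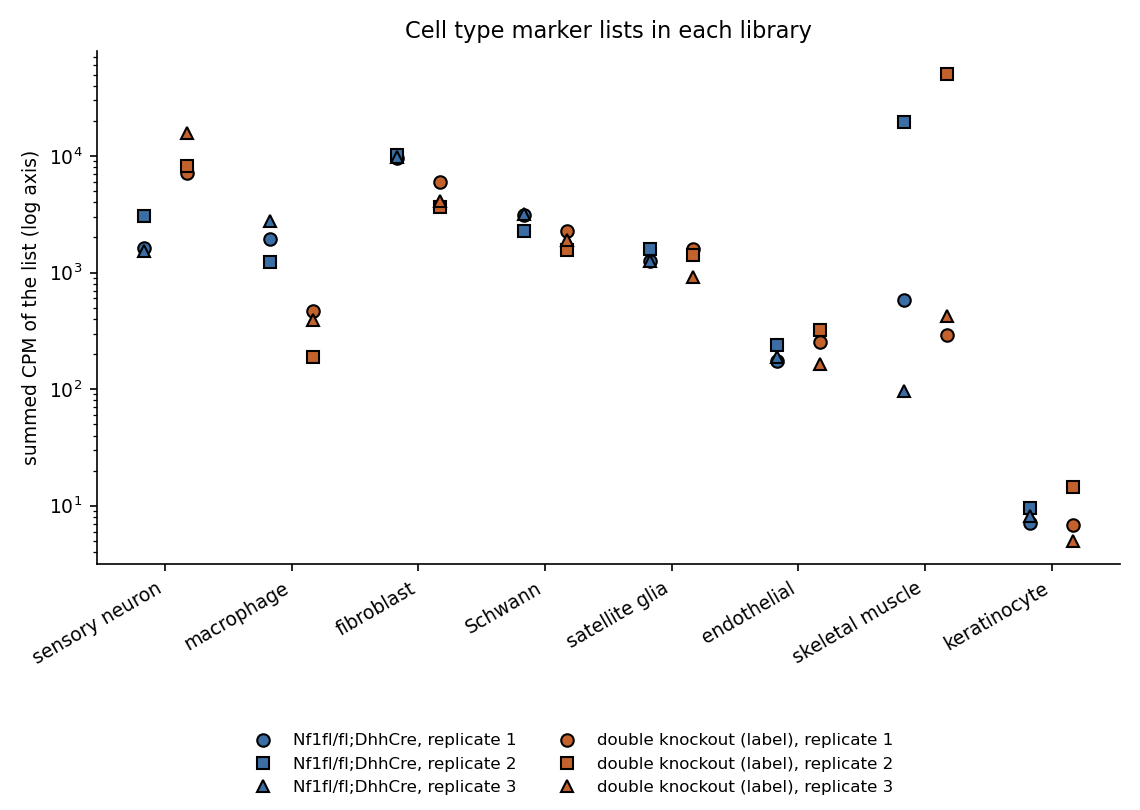
Summed CPM of 8 cell type lists is shown on a log axis for each library. Sensory neuron genes lie higher and macrophage and fibroblast genes lower in all double-knockout libraries, while skeletal muscle genes are high in replicate 2 of each genotype and keratinocyte genes do not exceed 14.5 CPM.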

How the data were processed

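Bulk RNA-seq libraries of 3 *Nf1fl/fl;DhhCre* and 3 double-knockout mice were used. The authors amplified RNA with the NuGEN Ovation system, prepared Nextera XT libraries, aligned paired-end reads to mm10 with TopHat and deposited raw counts per gene from featureCounts. The annotation, the strand setting and the handling of reads with several alignments are not given in the sources used here. For 4 libraries the title and the column of the deposited counts name different mice of the same genotype, so the genotype is unaffected but the mouse is not known, nor whether replicate 2 or 3 of the double knockout came from the other sequencing run. Replicates were numbered in the order of the labels and pair no mice.

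The genes examined and all lists were chosen with earlier results of these data known. The deposited counts were read into R 4.3.3. The filterByExpr function of edgeR 4.0.16 removed low genes (a level equal to 10 counts in at least 3 libraries and 15 counts over all were required), TMM factors of 0.950 to 1.04 set the library sizes, and voom of limma 3.58.1 was fitted with genotype as the only term. TMM, voom and the thresholds are those named in the methods of the study, whereas the filter and the model term were chosen here. Adjustment of p followed Benjamini and Hochberg, over all genes tested, and DEGs had an adjusted p below 0.05 and a change of more than 2-fold. Between libraries of the same genotype the chi-square divided by its degrees of freedom was 22.8 to 142, so that none was a copy. Nothing states that they came from separate litters, and p-values measure the spread between these libraries. Intervals from counts cover counting error only.

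All 9 members are reported in every library. From each list at most 4 DEGs with the largest change and an average log2 CPM of at least 1 were named, and *Jun*, *Gap43* and *Gal* in any case. DEGs named beyond this rule, such as *Ngfr* and *Cdh2*, and genes named though not called were chosen after their values were seen, except relatives of the members. *Adgre1* and *Adgrl3* were matched by older symbols. Positions and exon lengths are from GENCODE M21 (GRCm38), promoters from RefSeq (GRCm38.p6). The comparison was repeated with DESeq2 1.42.0, with its size factors in voom, with the quasi-likelihood test of edgeR, with library size only, with other filters, sample quality weights and leaving out each library. Leaving out both muscle-rich libraries was chosen after seeing the data. Fits were tested on simulated data. Python 3.11.15 and matplotlib 3.10.9 made the figures.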

Additional observations from a re-analysis of the deposited data

How the results depend on the processing

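*Anxa1* stayed a DEG under 7 other settings with all 6 libraries. The number of members called was 1, and it was 3 in DESeq2 (2 lower, 1 higher), 2 with sample quality weights (1 higher) and 2 without both muscle-rich libraries (1 higher). Among all genes, DEGs numbered 2977 of 17536 tested in DESeq2 and 2512 of 15652 with sample quality weights, against 2096 of 15652 in the main fit. Without both muscle-rich libraries they numbered 1752. The number of members called lay between 0 and 1 when 1 library was left out, with 0 without *Nf1fl/fl;DhhCre* replicate 1. *Sox11* passed in DESeq2 (1.62), with sample quality weights (1.74) and without both muscle-rich libraries (2.67), and *Sprr1a* in DESeq2 (-3.57), but *Sox11* passed after no single removal (1.22 to 2.35). *Anxa1* ran from -1.75 to -1.32 and *Atf3* from -0.17 to 0.10 when 1 library was left out, with *Atf3* above 0 without double-knockout replicate 3 (0.03) and without *Nf1fl/fl;DhhCre* replicate 3 (0.10). *Gadd45a* was 0.13 without both muscle-rich libraries, where the neuron-relative difference of *Cckbr* was -3.10 and that of *Sox11* -0.079.

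Over all genes, DEGs numbered 2096, of which 839 were lower. DESeq2 called 1261 lower. Leaving out 1 library gave 362 to 2285 in all, 181 to 1304 higher and 181 to 1028 lower, the lowest without *Nf1fl/fl;DhhCre* replicate 1. The causes were not tested. No paired analysis was possible because the labels give no replicate numbers. Low counts limit *Ecel1*, *Sprr1a* and *Cckbr*, for which large differences could be missed.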
